A study of Mus musculus with 21 samples.

Results

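The comparison described here sets 2 groups of mouse prostate tumours with the same genotype label, NPK, against each other: 8 tumours whose titles carry no month and 2 tumours titled 3 months, together 10 of the 21 arrays of the series. The arrays were chosen by their titles and not by any measured value. All came from the anterior prostate, none was treated, and the 3-month tumours are labelled late stage, whereas the tumours without a month carry no stage. Of the other groups, 3 NPK tumours titled 1 month and labelled early stage shared a chip with the 3-month arrays. The 8 tumours labelled NP entered the joint normalization, the choice of probes and the estimate of the spread, and are not compared here. The labels spell out neither the alleles nor the age, and do not say what the month counts from.

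RAS-MAPK signalling passes growth factor signals through a chain of kinases to the nucleus. Its output is usually read from its feedback inhibitors (Sprouty proteins and dual-specificity phosphatases) and from the PEA3 group of ETS transcription factors, Etv1, Etv4 and Etv5. Prostate epithelium consists of secretory luminal cells, marked by Krt8, Krt18 and cell-junction genes, above a layer of basal cells, marked by Krt5, Krt14 and Trp63. When epithelial cells take on a mesenchymal state, E-cadherin (Cdh1) and junction genes typically go down and vimentin (Vim) and the Zeb, Snai and Twist factors go up. Interferon-stimulated genes and the antigen-presentation machinery form another programme, switched on by STAT and IRF transcription factors.

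Expression was measured on Illumina bead arrays, and every level given here is a log2 normalized intensity of the brightest probe of a gene, over 12570 genes. The 2 groups shared no chip: the 8 NPK arrays lay on 3 chips with 5, 2 and 1 of them, and both 3-month arrays lay on another chip that held only the 1-month and 3-month arrays. Chip and group therefore cannot be told apart in this comparison, and the difference between 3-month and 1-month arrays, measured within 1 chip, is given beside it. The 1-month arrays differed in other tissue as well: the mean level of 12 skeletal muscle genes was 2.67 to 3.17 above the NPK mean on all 3 of them, 11 of the 12 genes were higher there than in NPK, and 10 were lower at 3 months than at 1 month. The part of this tissue in the differences from 1 month was not tested. More probes were detected on the 3-month arrays (19489 and 19600) than on any NPK array (15855 to 18226). The estimated noise was lower there as well (SD of 9.80 and 9.82 intensity units against 11.0 to 26.1). The 3-month arrays also differed from each other more than any NPK arrays did: over 3255 bright genes, the differences between both arrays had an SD of 0.833 on the log2 scale, against 0.318 to 0.702 for pairs of NPK arrays. For this reason both 3-month arrays are given singly for many genes, as replicate 1 and replicate 2. For the others only the fitted change is stated, which does not show how far the arrays differ. Apart from differing sample numbers, nothing in the labels says that the tumours came from separate animals, so the spread behind the p-values may be technical. In bulk tumours, fewer cells of a type and less RNA per cell cannot be told apart.

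In the comparison of 3-month with NPK arrays, 4919 of the 12570 genes (39.1%) passed an adjusted p of 0.05 in limma, 2616 higher at 3 months (20.8%) and 2303 lower (18.3%). These shares are the background against which each gene group below is read. For 4116 of the 4919 genes both 3-month arrays lay outside the range of the 8 NPK arrays, whereas for the other 803 at least 1 array lay inside it. Over all genes, 2456 (19.5%) had both arrays above that range and 2183 (17.4%) had both below. The median change of all genes was 0.02. Scaling each array to its upper quartile in place of quantile normalization moved that median to -0.16 and the split from 2616 higher and 2303 lower to 2100 and 2987. Without 3-month replicate 1 the count fell to 2731 genes, 1404 higher and 1327 lower.

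Genes with several probes offered a check that does not rest on 1 oligonucleotide. Of 5049 such genes, 478 rose at every probe (9.47%) and 326 fell at every probe (6.46%). Of the 2157 that were called by their brightest probe, 1683 had all probes changing in the same direction and 62 had another probe called in the opposite direction.

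**Figure D1:**
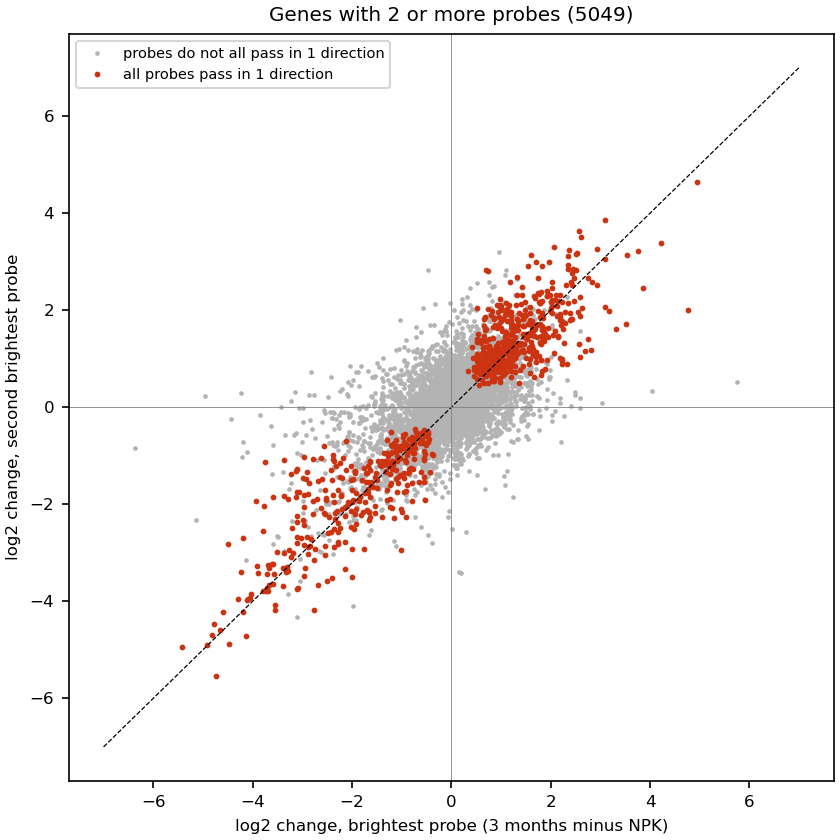
Log2 change from NPK to 3 months of the brightest probe of a gene (horizontal axis) against its second brightest probe (vertical axis), for the 5049 genes with 2 or more probes; the dashed line marks equality. Red points are the 478 genes that rose and the 326 that fell at every probe, and grey points are the other genes.

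Genes of the cell cycle were higher at 3 months. Of 31 tested members of the list, 30 rose and none fell, with a median change of 1.93 against 0.02 over all genes, and 29 of 31 were also higher than at 1 month within the same chip. The median differences of replicates 1 and 2 from the NPK mean were 2.02 and 1.76. The largest rise belonged to Rrm2, the subunit of ribonucleotide reductase that limits the supply of deoxynucleotides in S phase. Rrm2 lay between 4.65 and 7.32 (median 5.89) on the NPK arrays, where it was detected on 4 of 8, and at 11.33 and 10.44 on the 3-month arrays. Its level was at least 23.5-fold higher at 3 months (adjusted p = 1.26e-06), and its 2 probes rose by 4.95 and 4.65. Birc5, which encodes survivin, a subunit of the mitotic chromosomal passenger complex, ranged from 8.03 to 9.15 (median 8.70) in NPK and stood at 11.11 and 11.05 at 3 months. The Birc5 groups did not overlap, and its 3 probes rose by 2.35, 2.40 and 2.85. Mad2l1, a component of the spindle checkpoint, rose by 2.42 ± 0.28 (SE, n = 8 and 2 as in all comparisons of these groups) with an adjusted p of 3.04e-06. Mcm4, a subunit of the replicative helicase, rose by 1.53 ± 0.18 with an adjusted p of 4.13e-06, and all of its 3 probes rose. Cdc6, which loads that helicase onto origins, was the member that did not pass, at 6.90 and 6.56 against 4.90 to 6.81 in NPK (adjusted p = 0.084). Beyond the list, Cdca3, a regulator of mitotic entry, stood at 11.82 and 11.56 against 8.48 to 9.30 in NPK, and its probes rose by 2.74 and 2.66. The replication-dependent histone gene H2ac12 rose by 2.52 and 2.83 at its 2 probes, but its probes may not separate it from near-identical histone copies.

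E2F factors switch on many of these genes, and the promoter windows were searched for the E2F words TTTCCCGC, TTTCGCGC, TTTGCCGC and TTTGGCGC on both strands, from 250 bases before to 50 after the start site given by RefSeq for GRCm38.p6. A gene counted when any of its listed windows held a word. Of the 31 cell-cycle genes, 26 had a window and 7 of those (26.9%) held a word. So did 430 of 10095 tested genes with a window (4.26%) and 704 of all 27025 genes with a window (2.6%). Stretches of 100 bases are shown for the 3 such members with the largest rises, picked after their values were seen: Cdk1, the mitotic kinase (chr10:69352990-69353089, minus strand, change 1.93), and the helicase subunits Mcm6 (chr1:128359731-128359830, minus strand, 1.81) and Mcm5 (chr8:75109312-75109411, plus strand, 1.80). Capitals mark the words, which overlap on opposite strands in Mcm6 and Mcm5. A match describes the letters only.
Cdk1: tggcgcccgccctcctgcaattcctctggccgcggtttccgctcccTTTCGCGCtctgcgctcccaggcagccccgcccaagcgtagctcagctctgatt
Mcm6: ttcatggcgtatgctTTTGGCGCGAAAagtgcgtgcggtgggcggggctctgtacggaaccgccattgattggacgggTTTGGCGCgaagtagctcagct
Mcm5: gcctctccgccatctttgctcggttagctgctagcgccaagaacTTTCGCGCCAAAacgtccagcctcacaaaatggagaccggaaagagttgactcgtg

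Regulators of entry into the cycle moved in both directions. Of 15 D cyclins, their kinases, CDK inhibitors and pocket proteins, 8 rose and 3 fell, with a median change of 0.60. Among all genes, 20.8% rose and 18.3% fell. Cdkn2c and Cdkn2d, inhibitors of the D-cyclin kinases of the INK4 group, were both higher. Cdkn2c ranged from 6.96 to 8.65 (median 8.14) in NPK and stood at 10.56 and 10.57 at 3 months, and its 3 probes rose by 1.99 to 2.65. Cdkn2d rose by 1.77 ± 0.25 (adjusted p = 1.94e-05) at its only probe. Another INK4 gene, Cdkn2b, fell by 2.33 ± 0.42, standing at 7.99 and 8.99 against 10.13 to 11.66 in NPK. Rb1, the pocket protein that restrains E2F factors, stood at 9.75 and 8.81 against 7.73 to 8.53. Rb1 rose by 1.14 ± 0.27 (adjusted p = 0.00227), but by 0.68 without replicate 1. Its other probe rose by 1.17, at 9.29 and 9.51 against 7.59 to 8.66. Cdk4, a D-cyclin kinase, rose by 0.53 ± 0.15 (adjusted p = 0.0104), and by 0.40 without replicate 2. Its other, dimmer probe rose by 2.04, at 8.68 and 8.04 against 5.29 to 7.11.

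Of the 3 PEA3 factors, Etv4 and Etv5 rose, and the probes of Etv1 disagreed. Etv4 lay between 6.75 and 8.90 (median 7.64) in NPK and at 9.78 and 9.26 at 3 months, above every NPK array. It rose by 1.72 ± 0.50 (3.3-fold, adjusted p = 0.0106) at its only probe. With replicate 1 left out, the change was 1.46 with an adjusted p of 0.142, and with replicate 2 left out 1.98 with an adjusted p of 0.0348. Etv5 stood at 8.61 and 8.79 against 6.92 to 8.11 (median 7.29) and rose by 1.21 ± 0.36 (adjusted p = 0.0123), and its other probe rose by 0.88. That call was lost without either 3-month array (adjusted p = 0.0708 and 0.0954). At its brightest probe, Etv1 split the 3-month arrays, with 8.53 on replicate 1, above the NPK range of 5.57 to 7.65, and 6.08 on replicate 2, inside it. That probe did not pass (change 0.82 ± 0.61, adjusted p = 0.302) and gave -0.40 without replicate 1 and 2.05 (adjusted p = 0.036) without replicate 2, whereas its other probes rose by 2.53 and 2.47 (adjusted p = 6.6e-05 and 0.000313 over all probes). At these probes both 3-month arrays lay above NPK, at 8.92 and 7.12 against 4.80 to 6.27, and at 9.10 and 7.39 against 4.84 to 6.92. The mean of the 3 probes rose by 1.94 (adjusted p = 0.00179). Against 1 month on the same chip, Etv4 was 1.82 higher (adjusted p = 0.033) and Etv5 1.14 higher (adjusted p = 0.064).

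Of 18 genes that report RAS-MAPK output, Etv4 and Etv5 among them, 6 rose and 1 fell, with a median change of 0.50. The shares over all genes were 20.8% higher and 18.3% lower. Hbegf, a ligand of the EGF receptor, stood at 10.34 and 10.45 against 7.87 to 9.89 in NPK and rose by 1.44 ± 0.38 (adjusted p = 0.00559), a call lost without replicate 2 (adjusted p = 0.0531). Spry4, a Sprouty feedback inhibitor, stood at 7.42 and 6.53 against 5.18 to 6.55, so that replicate 2 lay inside the NPK range. Detected on 3 of 8 NPK arrays, Spry4 was at least 1.87-fold higher (adjusted p = 0.00479), with a fitted rise of 1.22, but of 0.78 (adjusted p = 0.19) without replicate 1. Plaur, the urokinase receptor, rose by 1.41 ± 0.38 (adjusted p = 0.0065), and by 1.04 (adjusted p = 0.161) without replicate 1. Phlda1, an immediate early gene of growth factor signalling, went the other way, from 13.58 to 14.50 in NPK to 11.40 and 12.37, a fall of 2.26 ± 0.26. The ERK phosphatase Dusp6, not among the genes named by rule, stood at 13.56 and 13.37 against 11.77 to 13.16 (change 0.91, adjusted p = 0.011).

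Epithelial genes were lower at 3 months. Of 30 tested members of the luminal and epithelial list, 25 fell and none rose, with a median change of -2.56, and 21 were also lower than at 1 month within the chip. The fall was deeper on replicate 1, with a median difference of -3.5 from the NPK mean against -1.54 on replicate 2. On replicate 1, 20 of the 30 genes were detected and on replicate 2 27, against 27 to 29 on the NPK arrays. St14 encodes matriptase, a membrane serine protease of epithelia. Its level was 10.76 to 11.46 (median 11.20) in NPK and 5.91 and 8.02 at 3 months, with no overlap. St14 fell by 4.19 ± 0.41 (adjusted p = 5.88e-07), and by 3.14 without replicate 1 and 5.25 without replicate 2. Ap1m2, an epithelial subunit of a clathrin adaptor, stood at 5.50 and 7.4 against 10.06 to 10.83, was detected on 1 of the 2 3-month arrays, and was at least 16.8-fold lower. Its 4 probes fell by 3.57 to 4.14, and the brightest fell by 3.15 without replicate 1 and 5.05 without replicate 2. Prss8, or prostasin, a protease that acts with matriptase, was at least 14.3-fold lower and detected on 1 of the 2 3-month arrays, with a fitted change of -3.94 ± 0.47 (-2.40 without replicate 1, -5.48 without replicate 2). E-cadherin (Cdh1), the adhesion molecule of epithelial junctions, ranged from 11.47 to 11.87 in NPK and stood at 8.28 and 9.80 at 3 months. Cdh1 fell by 2.61 ± 0.25 (6.09-fold, adjusted p = 5.57e-07; by 1.85 without replicate 1 and 3.37 without replicate 2), and its other probe fell by 1.48.

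The luminal keratins Krt8 and Krt18 and a luminal transcription factor changed less than the epithelial genes named above. These were singled out after their values were seen. Krt8 was 14.09 and 14.10 at 3 months against 14.31 to 14.89 in NPK (change -0.42 ± 0.16, adjusted p = 0.041). Krt18 was 11.75 and 12.28 against 12.02 to 13.13 (change -0.74 ± 0.24, adjusted p = 0.020), so that replicate 2 lay inside the NPK range. Foxa1, the pioneer factor of luminal prostate cells, was 11.83 and 12.58 against 11.81 to 13.01 and did not pass (change -0.33 ± 0.27, adjusted p = 0.34). Each of these was detected on both 3-month arrays. Of 17 genes of prostate secretion and the androgen response, 8 were detected on replicate 1 and 11 on replicate 2. The NPK arrays detected 11 to 15 of them.

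Basal epithelial genes were mostly lower as well: 8 of 13 fell and 1 rose, with a median change of -2.59, and the median difference was -2.82 on replicate 1 and -1.06 on replicate 2. Without replicate 1, 5 of the 13 fell. Lamb3, a chain of the basement membrane laminin of epithelia, stood at 7.91 and 10.34 against 11.82 to 12.58 and fell by 3.06 ± 0.37 (1.85 without replicate 1, 4.27 without replicate 2). Sfn, the epithelial adaptor stratifin, stood at 4.90 and 6.76 against 8.30 to 9.82 and was at least 7.59-fold lower, with a fitted change of -2.33 without replicate 1 and -4.19 without replicate 2. Col17a1, the hemidesmosomal collagen, fell at each of 3 probes by 2.19 to 3.21. Replicate 2, at 9.29, lay inside its NPK range of 9.23 to 12.43, and without replicate 1 the call was lost (change -1.88, adjusted p = 0.143, against -4.54 without replicate 2). Itga6, the hemidesmosomal integrin subunit, was the member that rose (8.82 and 7.87 against 6.58 to 7.64, probes 1.22 to 1.52). Its change without replicate 1 was 0.75 (adjusted p = 0.103). Trp63, the defining basal transcription factor, did not pass (7.43 and 9.42 against 7.75 to 11.15, adjusted p = 0.14).

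Genes of prostate secretion and the androgen response included 6 that fell and none that rose among 17 tested, with a median change of -1.94. The share lower over all genes was 18.3%. Tmprss2, an androgen-regulated serine protease, stood at 7.61 and 11.76 against 13.30 to 14.31 and fell by 4.24 ± 0.58 (adjusted p = 1.65e-05), which was 2.17 without replicate 1 and 6.31 without replicate 2. Pigr, the receptor that carries immunoglobulin A across epithelium, fell by 3.56 ± 0.42 (2.40 without replicate 1, 4.73 without replicate 2). Acpp, prostatic acid phosphatase, was detected on 1 of the 2 3-month arrays and was at least 6.85-fold lower (4.75 and 6.19 against 7.56 to 9.41), with a fitted change of -2.47 without replicate 1 and -3.91 without replicate 2. Abcc4, an exporter of prostanoids and cyclic nucleotides, fell by 1.29 ± 0.19 (change -0.98 without replicate 1, -1.60 without replicate 2). Fkbp5, an androgen and glucocorticoid target that was not named by rule, was 11.00 and 10.97 against 9.93 to 10.79 and did not pass (adjusted p = 0.24). Seminal vesicle secretory genes, which mark tissue next to the anterior prostate, varied widely within NPK: their mean level ran from 6.24 to 14.7 on the 8 arrays and was 5.39 and 6.89 at 3 months. Of 11 such genes 1 fell against NPK (Svs1, adjusted p = 0.0464, lost without either 3-month array at adjusted p = 0.214 and 0.154, and without any of NPK replicates 1, 5 and 6), while 8 were lower than at 1 month. With the seminal vesicle and skeletal muscle means as covariates, 4619 genes passed.

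**Figure D2:**
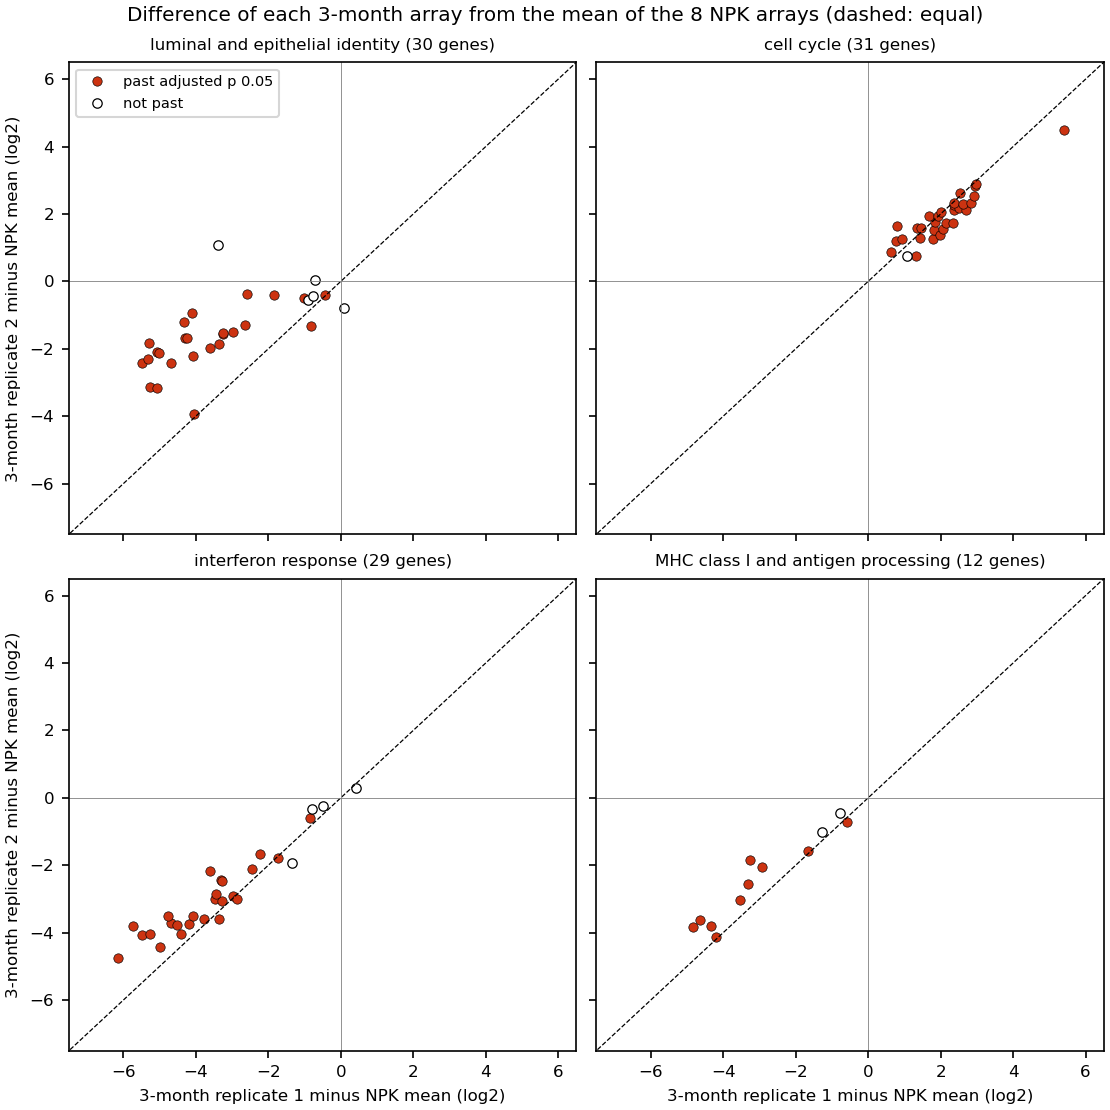
Difference of each 3-month array from the mean of the 8 NPK arrays on the log2 scale, replicate 1 horizontally and replicate 2 vertically, for the genes of 4 lists; filled points passed an adjusted p of 0.05 and the dashed line marks equal differences. Epithelial genes lie mostly above the line, with medians of -3.5 and -1.54, while cell-cycle (2.02 and 1.76) and interferon genes (-3.45 and -3.00) lie near it.

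Genes tied to a mesenchymal state were mixed, with 7 of 19 higher, 2 lower and a median change of 0.72. The background was 20.8% higher and 18.3% lower. Vimentin, the mesenchymal intermediate filament, ranged from 10.38 to 11.82 (median 10.99) in NPK and stood at 14.59 and 14.41 at 3 months, clear of every NPK and 1-month array. Vim rose by 3.48 ± 0.38 (11.1-fold, adjusted p = 1.56e-06) at its only probe, and was 2.72 higher than at 1 month. Zeb1, a repressor of E-cadherin transcription, stood at 10.85 and 10.82 against 8.71 to 10.14 and rose by 1.65 ± 0.39, with its other probe at 1.08. S100a4, a calcium-binding protein of mesenchymal cells, stood at 9.48 and 7.30 against 4.97 to 7.19, was detected on 2 of 8 NPK arrays, and was at least 4.84-fold higher. Without replicate 1 its fitted change was 1.48 (adjusted p = 0.0595), and with replicate 1 alone 3.66. Prrx1, a mesenchymal homeobox factor, rose at 3 probes by 1.57 to 2.08, but its brightest probe gave 1.53 (adjusted p = 0.214) without replicate 1. Of the genes outside the naming rule, Snai2 fell by 1.43 (adjusted p = 0.0051) and Fn1, at 14.13 and 14.19 against 11.61 to 14.56, did not pass (adjusted p = 0.11).

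Most stromal markers did not pass the threshold. Of 20 fibroblast and collagen genes 1 rose and 2 fell, the median change was -0.14, and their mean level at 3 months (9.86 and 9.96) lay inside the NPK range of 9.0 to 10.8. Smooth muscle genes included 2 that fell among 11 (mean level 8.69 and 9.76 against 9.15 to 12.1), and endothelial genes 2 that rose and 1 that fell among 14 (8.76 and 9.11 against 8.02 to 9.20). Their part in the epithelial and mesenchymal results was not tested. The fibroblast gene that rose was Cthrc1, a secreted glycoprotein of remodelling tissue. Cthrc1 was detected on 1 of 8 NPK arrays (4.69 to 6.04) and stood at 11.07 and 9.81 at 3 months, at least 22.5-fold higher, at its only probe. It was also 4.19 higher than at 1 month, and without replicate 1 its fitted change was 4.64 and without replicate 2 5.90. Among 20 matrix proteases and their regulators, 5 rose and 1 fell, against 20.8% higher and 18.3% lower over all genes. Mmp14, the membrane-bound collagenase, stood at 14.22 and 14.43 against 11.03 to 13.69 and rose by 1.66 ± 0.40 (adjusted p = 0.00302). Mmp7, an epithelial matrilysin, was at least 7.84-fold lower, with a fitted change of -3.45, and its call was lost without replicate 1 (change -2.72, adjusted p = 0.0674, against -4.18 without replicate 2).

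Interferon-stimulated genes fell together: 25 of 29 tested were lower at 3 months, none was higher, and the median change was -3.17. Both arrays showed it, with median differences of -3.45 and -3.00, and 23 of the 29 were also lower than at 1 month on the same chip. Irf7, the transcription factor that amplifies interferon responses, stood at 5.81 and 7.21 against 11.13 to 12.67 in NPK, a fall of 5.44 ± 0.62 at its only probe (change -4.75 without replicate 1, -6.14 without replicate 2). Usp18, which removes ISG15 from proteins and damps interferon receptor signalling, ranged from 12.26 to 14.50 (median 13.49) in NPK and stood at 9.44 and 10.00. Both of its probes fell by 3.78 (adjusted p = 1.44e-05 for the brightest). Dhx58, a cytoplasmic RNA sensor related to RIG-I, stood at 6.95 and 7.91 against 10.55 to 12.32, and its 3 probes fell by 4.03 to 4.22. Oasl2, a member of the oligoadenylate synthetase family, fell at each of 3 probes, with changes of -2.72 to -4.71 (brightest -4.13, and -3.51 without replicate 1 and -4.75 without replicate 2). The 4 members that did not pass were Ifit2 (adjusted p = 0.068), Ifih1, Zbp1 and Bst2, and of these Bst2 lay above its NPK median (8.62 and 8.50 against 7.85).

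The promoter windows of interferon genes were searched in the same way for the letters GAAA, any 2 bases and GAAA again, a core of the interferon-stimulated response element bound by STAT and IRF factors. Of the 29 genes 20 had a window, and 13 of those (65%) held the word. So did 381 of 10095 tested genes with a window (3.77%) and 1079 of all 27025 genes with a window (3.99%). Stretches are shown for the 4 such members with the largest falls, picked after their values were seen: the oligoadenylate synthetases Oas1g (chr5:120887614-120887713, change -4.66) and Oas3 (chr5:120777680-120777779, -4.22), the ubiquitin ligase family member Trim30a (chr7:104465194-104465293, -4.15) and Rsad2, which encodes the antiviral enzyme viperin (chr12:26456518-26456617, -3.97), all on the minus strand. Capitals mark the word on either strand, and Oas1g holds 2 overlapping copies. Bst2 and Ifih1 hold the word too and did not pass (changes of 0.37 and -0.56), while Irf7 and Oasl1, which fell further than the genes shown (-5.44 and -4.77), hold none in this window. The change of Oas1g was -4.05 without replicate 1 and -5.26 without replicate 2, and its probes may not separate it fully from close relatives such as Oas1a.
Oas1g: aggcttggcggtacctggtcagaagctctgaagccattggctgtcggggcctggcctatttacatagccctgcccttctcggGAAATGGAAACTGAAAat
Oas3: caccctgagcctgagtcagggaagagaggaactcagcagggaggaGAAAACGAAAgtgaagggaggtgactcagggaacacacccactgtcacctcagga
Trim30a: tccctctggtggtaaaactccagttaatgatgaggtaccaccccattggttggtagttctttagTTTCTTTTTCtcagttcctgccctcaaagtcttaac
Rsad2: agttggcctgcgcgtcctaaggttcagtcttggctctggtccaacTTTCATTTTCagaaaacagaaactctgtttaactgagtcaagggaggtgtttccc

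Antigen presentation was lower on both arms. Of 12 class I and processing genes, 10 fell and none rose (median change -2.74), and 11 were lower than at 1 month. B2m, the invariant light chain of class I molecules, was tight in NPK at 15.18 to 15.52 and stood at 13.74 and 13.83 at 3 months. It fell by 1.61 ± 0.12 (3.05-fold, adjusted p = 5.34e-08), and by 1.62 at its other probe. Psmb8, a catalytic subunit of the immunoproteasome, fell by 2.48 ± 0.47, and by 2.59 at its other probe. H2-D1, a classical class I heavy chain, fell by 2.55, 3.04 and 4.48 at its 3 probes, the brightest by 1.84 without replicate 1 and 3.26 without replicate 2. The class I genes H2-Q8 and H2-Q6 were each detected on 1 of the 2 3-month arrays and were at least 37.1-fold and 20.7-fold lower. Their fitted changes were -5.41 and -4.95 at the probes of H2-Q8 and -4.48 and -4.89 at those of H2-Q6, but class I genes are so alike that probes may read several of them. Of 11 class II and dendritic cell genes, 8 fell and none rose (median change -2.71). Cd74, the invariant chain of class II molecules, ranged from 13.08 to 14.54 (median 14.21) and stood at 9.56 and 10.57, a fall at 3 probes, by changes of -3.92 to -4.05 (adjusted p = 5.72e-08). H2-Ab1, a class II beta chain, fell at 3 probes, with changes of -3.23 to -3.58 (brightest -2.86 without replicate 1 and -4.31 without replicate 2). Ciita, the transactivator of class II genes, was at least 4.73-fold lower (4.63 and 5.89 against 6.72 to 9.21), with a fitted change of -2.08 without replicate 1 and -3.34 without replicate 2.

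Inflammatory mediators showed the same direction in part. Of 23 chemokines 10 fell and none rose, against a background of 18.3% lower, with a median change of -1.30. Cxcl16, a membrane-bound chemokine and scavenger receptor, stood at 9.09 and 9.65 against 11.81 to 12.57, and fell by 2.78 and 1.93 at its 2 probes. Cxcl17, a mucosal chemokine, split the arrays widely, at 6.65 and 11.49 against 12.65 to 14.87, so that its change was -7.35 on replicate 1 and -2.51 on replicate 2. Ccl5, a T-cell attractant detected on 1 of the 2 3-month arrays, was at least 9.32-fold lower (5.23 and 5.91 against 7.42 to 10.64), but not past the threshold against 1 month (adjusted p = 0.085). Of 15 cytokines 5 fell and 1 rose. Tnf ranged from 8.64 to 10.05 (median 9.34) in NPK and from 8.58 to 8.99 at 1 month, and was detected on neither 3-month array (4.82 and 5.35). Its level was at least 14.1-fold lower (adjusted p = 2.73e-08), and its probes fell by 4.29 and 3.96. Inhba, which encodes the activin A subunit, was the cytokine that rose (12.65 and 11.15 against 7.86 to 11.17), and only with replicate 1 (change 1.5, adjusted p = 0.271, without it, and 2.99 with it alone).

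Immune cell markers were mixed. Of 13 T and NK cell genes 6 fell and 1 rose (median change -1.35). The T-cell receptor subunits Cd3e and Cd3g were detected on all 8 NPK arrays and on neither 3-month array. Cd3e was at least 2.61-fold lower and Cd3g at least 4.88-fold lower, though neither passed against 1 month (adjusted p = 0.091 and 0.080). Of 20 macrophage and myeloid genes 4 fell and 1 rose (median change -0.74), against 18.3% lower and 20.8% higher over all genes. At 3 months, 18 and 19 of the 20 were detected. Their mean level was 9.32 and 9.47 against 9.36 to 10.7 in NPK. Fcer1g, the signalling chain shared by Fc receptors, was detected on neither 3-month array (4.77 and 5.01 against 10.13 to 12.71) and was at least 61.5-fold lower, but it rests on 1 probe. Its partner adaptor Tyrobp, outside the naming rule, was 8.87 and 9.0 against 8.68 to 10.74 and did not pass (adjusted p = 0.089). Cd14, a co-receptor for lipopolysaccharide, fell by 1.57 ± 0.25 (change -1.133 without replicate 1, -2.015 without replicate 2). Of 8 B-cell and plasma-cell genes 2 fell, Blnk (changes of -2.96 and -2.05 at its probes, the brightest -2.12 without replicate 1 and -3.8 without replicate 2) and Xbp1 (by 0.66, adjusted p = 0.051 without replicate 2). Of 8 neutrophil genes 2 fell and 1 rose. The falls were in Lcn2 (9.23 and 12.85 against 14.59 to 15.80, and a change of -2.49 without replicate 1 and -6.10 without replicate 2) and Ltf (10.74 and 14.33 against 15.55 to 15.74, -1.32 without replicate 1 and -4.91 without replicate 2), which epithelium also secretes, while S100a8 and S100a9 did not pass. The part of these cell types in the fall of interferon, antigen-presentation and cytokine genes was not tested.

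**Figure D3:**
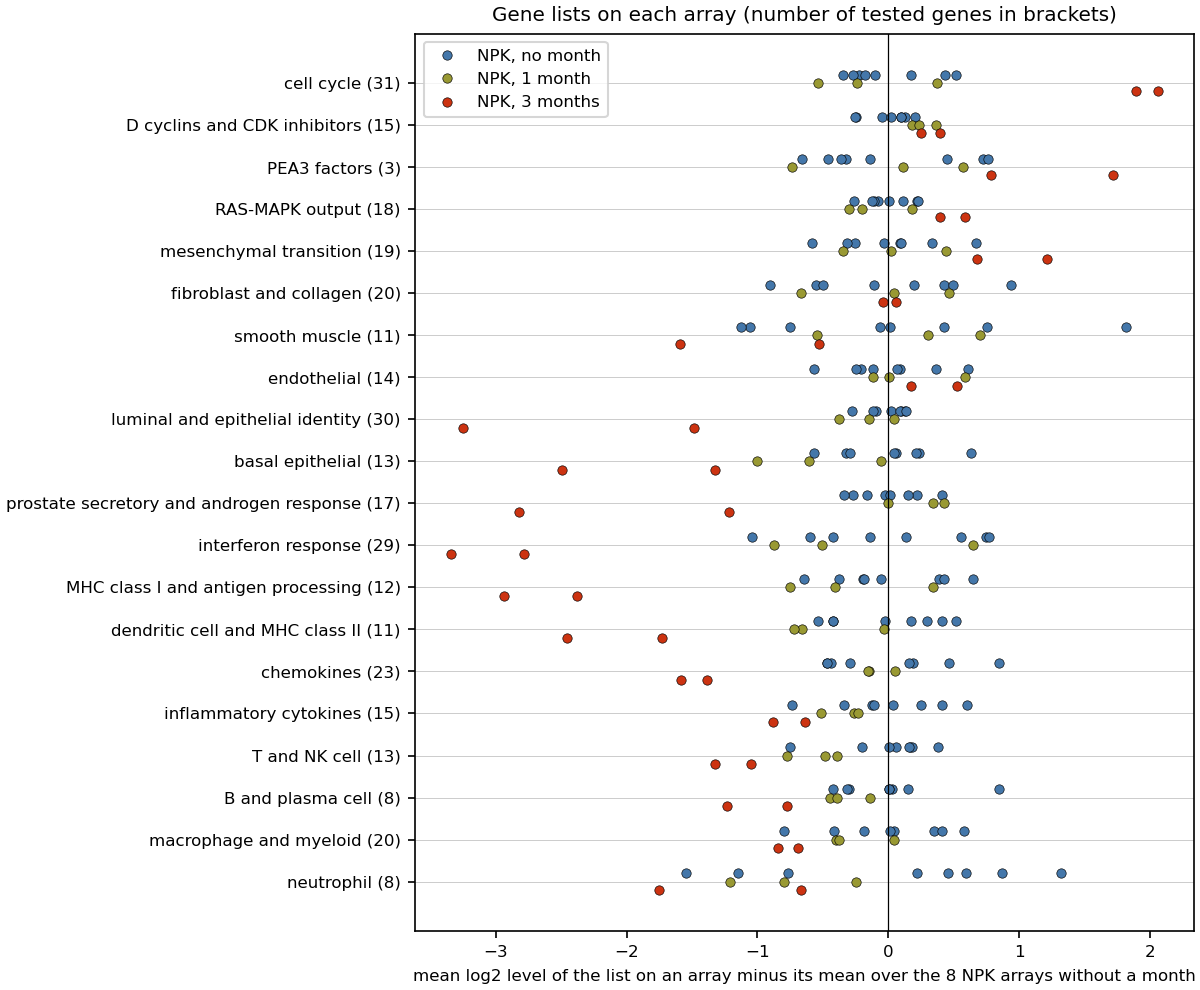
Mean log2 level of each gene list on each array minus its mean over the 8 NPK arrays without a month (horizontal axis), with 1 row per list and the number of tested genes in brackets; blue, NPK without a month; olive, 1 month; red, 3 months. The 3-month arrays lie right of all other arrays for the cell cycle and left of them for the luminal, interferon and class I lists, but among them for fibroblast and endothelial lists.

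**Figure D4:**
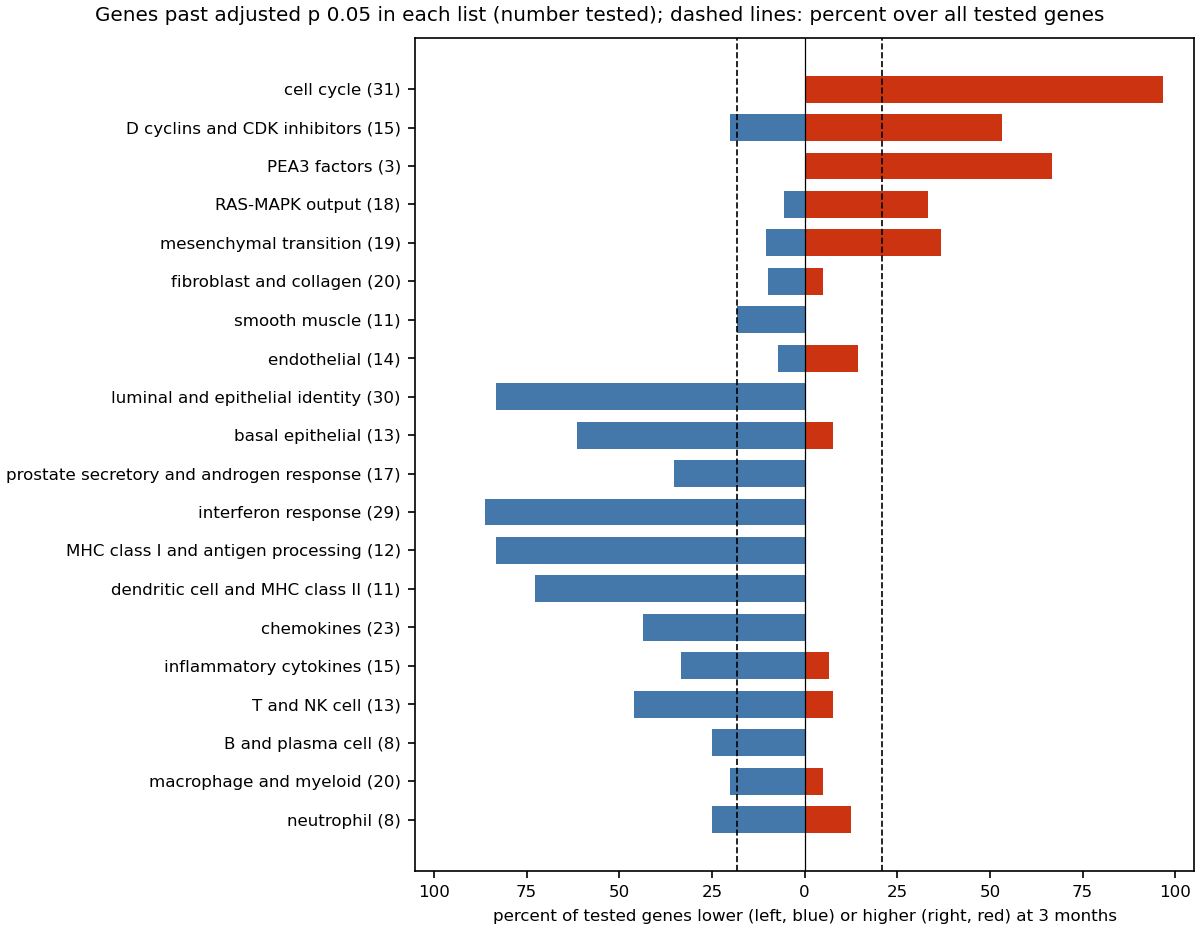
Percent of the tested genes of each list that passed an adjusted p of 0.05, lower at 3 months to the left in blue and higher to the right in red, with dashed lines at 18.3% and 20.8%, the shares over all 12570 genes. The bars reach furthest past the lines for the cell cycle (30 of 31 higher), interferon (25 of 29 lower), luminal (25 of 30 lower) and class I lists (10 of 12 lower).

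Across all genes, the largest rises at which every probe passed and both arrays cleared the NPK range comprised Rrm2, Cdca3 and H2ac12 (above) and 9 others. Wnt5a, a ligand of non-canonical Wnt signalling, ranged from 8.12 to 9.76 (median 9.03) in NPK, from 8.70 to 9.56 at 1 month, and stood at 12.58 and 11.73 at 3 months. Its 3 probes rose by 3.09, 3.37 and 3.86 (adjusted p = 0.000149 for the brightest). Nectin3, an adhesion molecule of cell junctions, stood at 11.52 and 10.75 against 6.26 to 8.16, and rose by 3.76 and 3.21. Add2, an adducin of the membrane skeleton, was detected on 2 of 8 NPK arrays and was at least 9.79-fold higher (10.47 and 8.62 against 4.58 to 7.46, 3.29 without replicate 1 and 5.14 without replicate 2). Pcolce2, an enhancer of procollagen cleavage, was detected on 1 of 8 NPK arrays and was at least 11-fold higher, and its fitted rise was 2.68 without replicate 1 and 5.04 without replicate 2. Gldc, the glycine decarboxylase of mitochondria, rose by 2.93 and 2.53, and stood at 11.49 and 11.27 against 7.50 to 9.19. Thsd7a, a thrombospondin-repeat protein of the cell surface, rose by 2.82 (2.15 without replicate 1 and 3.5 without replicate 2) and 2.57. The rises of Dok1, a docking protein of tyrosine kinases, of Gpihbp1, which anchors lipoprotein lipase to capillaries, and of Ociad2 were less secure. The call of Dok1 was lost without replicate 1 (change 1.94, adjusted p = 0.0578, against 3.13 without replicate 2), that of Gpihbp1 likewise (2.72, adjusted p = 0.102), and that of Ociad2 without either 3-month array (adjusted p = 0.127 and 0.0954).

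The largest falls by the same rule were H2-Q8, H2-Q6, Cxcl17, Dhx58, Tnf, Cd74 and Usp18 (above) and 5 others, all higher on every NPK array than on either 3-month array. Fxyd4, a regulator of the sodium pump in epithelia, stood at 6.28 and 10.55 against 12.17 to 13.86, a change of -6.96 on replicate 1 and -2.69 on replicate 2. Mapk13, a p38 kinase, stood at 5.61 and 8.78 against 10.52 to 11.73 (changes of -5.70 and -2.52 on the arrays singly). Plekhs1, a protein with a pleckstrin homology domain, stood at 7.70 and 10.68 against 12.32 to 13.43 (-5.17 and -2.20). Slc5a9, a sodium-coupled sugar transporter, was at least 9.98-fold lower, with fitted changes of -4.5 on replicate 1 and -2.95 on replicate 2. Clca1, a secreted protein of mucous epithelia, fell by 4.73 and 5.55 at its probes, but spread from 10.72 to 15.28 within NPK and lost its call without replicate 1 (change -3.24, adjusted p = 0.278, against -6.23 without replicate 2). In these 5 genes the fall was deeper on replicate 1, as it was in 1734 of the 2303 genes called lower.

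Of the genes measured by 1 probe, the largest rises were Klra4, Cthrc1 and Prkg2. Klra4, a receptor of the Ly49 family on NK cells with close paralogues, was detected on 3 of 8 NPK arrays and was at least 25.6-fold higher (12.08 and 9.44 against 4.65 to 6.54, 3.97 without replicate 1 and 6.62 without replicate 2). Of the 13 tested genes of the T and NK list, 3 were detected on each 3-month array and 8 to 11 on the NPK arrays. Klrb1c and Klrd1, other NK receptors in that list, were picked after their values were seen and were detected on neither 3-month array. The source of the Klra4 signal was not tested. Prkg2, a cyclic GMP-dependent kinase, stood at 13.54 and 12.24 against 6.78 to 8.71 and rose by 5.10 ± 0.50 (4.45 without replicate 1 and 5.75 without replicate 2). The largest falls were Fcer1g, Irf7 and Cited4, a transcriptional coactivator, which was detected on 1 of the 2 3-month arrays and was at least 24-fold lower (4.88 and 7.33 against 10.16 to 11.65, fitted change -3.70 without replicate 1 and -6.15 without replicate 2).

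**Figure D5:**
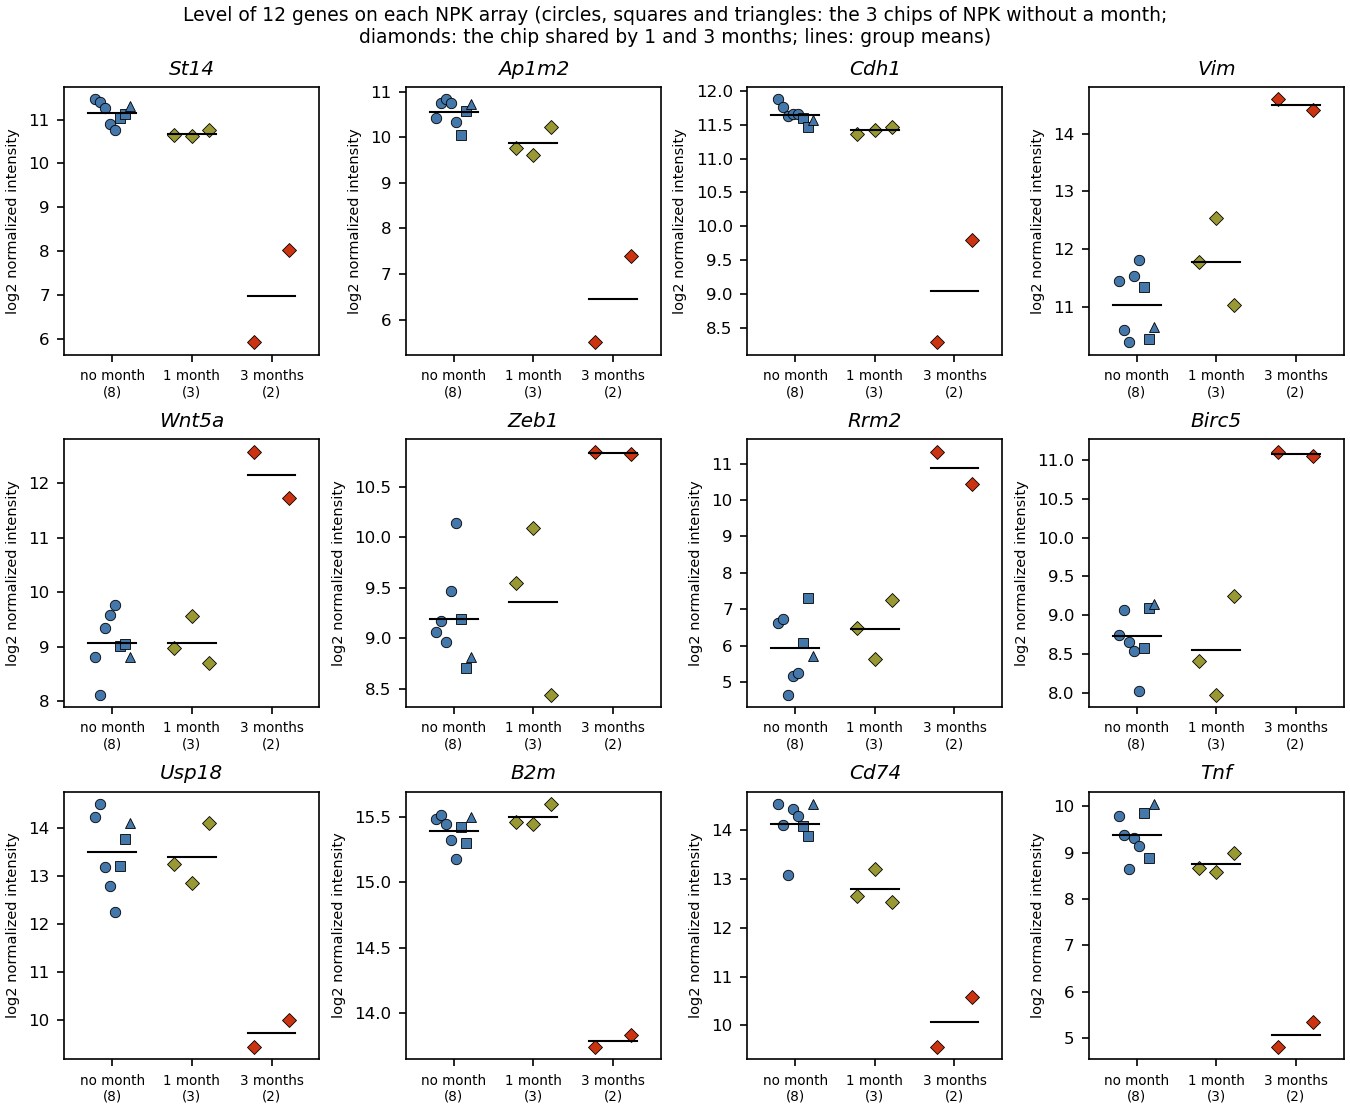
Log2 normalized intensity of 12 genes on each NPK array, by group on the horizontal axis; the shapes are chips and the lines are group means. Both 3-month arrays lie outside all 8 NPK arrays and all 3 1-month arrays for each of these genes, and they differ more from each other for St14, Ap1m2 and Cdh1 than for Vim, Zeb1 or Birc5.

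The called genes were also set beside the 1-month arrays, which shared the chip of the 3-month arrays. Against NPK, 1312 genes were higher at 1 month (10.4%) and 1355 lower (10.8%), and against 1 month 1181 genes were higher at 3 months (9.40%) and 1226 lower (9.75%). These comparisons share arrays with the main one, so the values are given side by side. Vim, Wnt5a, Rrm2, St14, Usp18, Cd74 and Tnf differed by 2.72, 3.07, 4.43, -3.72, -3.68, -2.73 and -3.66 from the 1-month mean, each past the threshold. Other called genes differed less from the 1-month arrays than from NPK. With 2 arrays against 3, a small difference or one that did not pass does not show equal levels. The AP-1 subunits Jund and Junb fell against NPK by 1.87 and 1.33, but differed by 0.25 and 0.12 from 1 month (adjusted p = 0.68 and 0.84). Srebf1, the transcription factor of fatty acid synthesis, fell by 1.64 and differed by -0.43 (adjusted p = 0.26). The respiratory chain subunit Cox5a fell by 0.59 and differed by 0.12, and the T-cell kinase Zap70, detected on neither 3-month array, was at least 2.87-fold lower than in NPK and differed by -0.23 (adjusted p = 0.76). Kdr, a receptor of endothelium detected on no NPK array, was at least 1.21-fold higher than in NPK and differed by 0.21 from 1 month. Eng, another, changed by -0.81 and 0.43 in the same comparisons, and the call of Eng was lost without either 3-month array (adjusted p = 0.148 and 0.116). In the comparison with NPK, chip and group cannot be told apart for any gene, whether or not it passed against 1 month.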

How the data were processed

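Total RNA was amplified and hybridised to Illumina mouse bead arrays, per the labels' protocols, and BeadStudio and lumi are the tools listed per the submitters' processing notes. The deposited table holds background-subtracted intensities, not normalized between arrays, with no detection p-value. The authors' deposited log2 values were normalized separately for the arrays with and without a month, so they served only as an alternative, normalized together again, that was added after seeing the data.

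All 21 arrays were corrected together with a normexp model whose noise SD came from the negative values, with an offset of 16, then quantile normalized and put on the log2 scale. Detection required a signal that noise alone would pass with a probability of 0.01 or less. Probes detected on 3 arrays or more were kept (24217 of 45126), 34767 probes of the table having 1 gene symbol, 18 several and 10341 none. The brightest probe stood for a gene, and the same probe was kept in the alternatives wherever it passed their filter. NP replicates 4 and 5 differed by less than other pairs (SD of log2 differences 0.129) and were counted as 1 sample. A limma 3.58.1 model (R 4.3.3, lmFit and eBayes, 16 residual degrees of freedom) covered all 4 groups, with Benjamini-Hochberg adjustment over 12570 genes and a threshold of 0.05. Changes are 3 months minus NPK on the log2 scale. The fit was tested on simulated data with independent noise and no chip effect, so that test does not bear on the difference in chips. A fold is "at least" a value where a group detected the probe on at most 0.5 of its arrays.

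Named by rule were Etv1, Etv4, Etv5, Cdh1 and Vim, the 12 largest rises and falls with agreeing probes, up to 4 members of each list and the 3 largest rises and falls measured by 1 probe. Other genes were named after their values were seen. The gene lists and rules were chosen with earlier results of these data known. Of 643 list entries 525 were tested and 59 were not named on the array. The few arrays limit the precision, above all the 2 at 3 months. The engineered loci are not reported here.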

Additional observations from a re-analysis of the deposited data

Results flagged for a closer look

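Among the 8 NPK arrays, 8 of the 128 named genes had 1 array set apart from the others, by Dixon's test at its critical value of 0.526. Chance flags about 5% of groups. NPK replicate 3 was low for Cd74 (13.08, the next array at 13.87) and high for Ociad2 (10.67, next 8.23) and for the uroplakin gene Upk2 (10.00, next 8.31). NPK replicate 8, alone on its chip, was low for Cdkn2c (6.96, next 7.99) and for the endothelial junction gene Cldn5 (6.25, next 7.88), and high for the histone methyltransferase gene Ezh2 (9.90, next 9.04). NPK replicate 7 was high for Echs1 (10.98, next 10.59), an enzyme of fatty acid oxidation, and NPK replicate 1 was high for the AP-1 subunit Jun (10.02, next 9.58).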

How the results depend on the processing

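The counts of called genes ran from 2731 to 5087 over 29 alternatives, against 4919. Leaving out 1 array at a time gave 2731 to 4947 genes, 1404 to 2638 higher and 1327 to 2345 lower, 186 to 485 that rose and 130 to 337 that fell at every probe, and 5 to 9 basal genes lower. The lowest of each came without 3-month replicate 1, and of its 2731 genes 2550 were among the 4919. With chip as a random block (correlation 0.182) 3958 genes passed, and 309 rose at every probe. Array weights gave 3443 genes. Over all alternatives, 25 to 31 cell-cycle genes rose, and 21 to 26 luminal, 20 to 26 interferon and 9 to 11 class I genes fell. Of 128 named genes, 75 kept their direction and their call or lack of one in every alternative that tested them. With the random block, 13 lost their call. More of the named genes changed in call or direction without 3-month replicate 1 than without replicate 2. Leaving out 1 array at a time took Etv1 from -0.40, without 3-month replicate 1, to 2.05. The median of the respiratory chain list (-0.14) turned to 0.0347 with the mean of a gene's probes and 0.00396 with the replicate block, and ran from -0.172 to 0.237 with 1 array left out, above 0 without 3-month replicate 2. That of the seminal vesicle list turned to 0.0376 with its own mean as a covariate, which by construction takes out the level of the list. The cause of the respiratory chain turns was not tested. With the replicate number as a block 4020 genes passed. Over the 2 shared numbers, the correlation of replicate 1 minus 2 between groups was 0.00995. With 1 such difference in each group, this cannot decide whether the numbers pair the tumours.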

Other observations

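Genes of sterol and fatty acid synthesis were mixed at 3 months, with 6 of 16 higher and 2 lower, against 20.8% and 18.3% over all genes. Sqle, the squalene epoxidase of cholesterol synthesis, stood at 12.09 and 12.23 against 10.41 to 11.52 in NPK, and Elovl6, a fatty acid elongase, at 9.90 and 9.73 against 7.45 to 9.40. They rose by 1.23 ± 0.31 and 1.78 ± 0.40, and were also higher than at 1 month (adjusted p = 0.0441 and 0.00106). Dhcr7, the last enzyme of cholesterol synthesis, fell by 1.56 ± 0.37 but did not pass against 1 month on the same chip (difference 0.41, adjusted p = 0.574).

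Of 23 Hox genes, which mark position along the body axis, 3 rose and 3 fell. Over all genes, 20.8% were higher and 18.3% lower. Hoxa5 rose by 0.96, at 9.92 and 9.73 against 8.16 to 9.66 in NPK. Its change was 0.86 without replicate 1 and 1.06 without replicate 2, and its call was lost with chip as a random block. Hoxd10 stood at 6.14 and 7.69 against 9.11 to 10.63 in NPK and fell by 3.06 ± 0.38 (change -2.28 without replicate 1 and -3.83 without replicate 2). Hoxd13, a factor of prostate development, stood at 5.83 and 6.79 against 6.98 to 9.39 and fell by 2.28 ± 0.58, a call lost without replicate 1 (change -1.79, adjusted p = 0.11). Among 23 genes of glycolysis and hypoxia 2 rose and none fell, against 20.8% higher and 18.3% lower over all genes. Of the 2 that rose, Stc1, the secreted glycoprotein stanniocalcin, stood at 9.88 and 10.84 against 5.92 to 8.08. Stc1 rose by 3.46 ± 0.51 (adjusted p = 3.62e-05). It was 4.16 higher than at 1 month.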
